A study of Rattus norvegicus with 12 samples.

Results

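The genes described here are the members of the Indian hedgehog signalling axis of the uterus. They were chosen by name, and 9 of the 16493 gene symbols in the files are members: Ihh, Ptch1, Smo, Gli1, Gli2, Gli3, Hhip, Sufu and Nr2f2. They were followed through 12 RNA-seq libraries of rat uterus, in 4 groups of 3. All animals were ovariectomized Sprague-Dawley females, which lack the ovarian source of estrogen and progesterone. CAS rats ate a casein diet and SPI rats a diet with soy protein isolate. CAS-E2 and SPI-E2 rats ate the same diets and also received 17β-estradiol (E2) at 5 μg/kg/d from a subcutaneous minipump, while the pumps of the CAS and SPI rats held vehicle alone. By the study's methods, diets began on PND30, ovariectomy was on PND50 and the uteri were taken on PND65, although the study's texts differ on the length of feeding. Each library is a pool of RNA from 2 uteri, so 6 uteri stand behind each group. Every SD given is that between 3 pools. Standard errors (SE), confidence intervals and p-values from limma come from 1 fit that shares its estimate of the spread over all 4 groups. They therefore draw also on libraries outside the comparison. Whole uteri were used, and libraries of 1 group were sequenced together, so an effect of the lane cannot be told apart from one of the group.

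In the adult uterus, the epithelium is the known source of Indian hedgehog, a secreted ligand that progesterone induces. The ligand acts on the stroma beneath. There it binds the receptor Patched 1 (Ptch1), which releases Smoothened (Smo), and the GLI transcription factors then switch on their targets. Gli1 and Ptch1 are themselves such targets in many tissues and are widely used as readouts of the pathway. Nr2f2, which encodes the nuclear receptor COUP-TFII, is a known downstream effector of the pathway in uterine stroma.

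The promoter of Ptch1 is shown first because it was the only one of the member promoters examined to hold a full GLI recognition motif. RefSeq promoters of GRCr8, each with 250 bases before and 50 bases after the annotated start, were found for 6 of the 9 members: Ptch1, Smo, Gli2, Gli3, Hhip and Sufu. They were searched on both strands for the GLI motif GACCACCCA and for its core CCACCC, which lies inside it. The Ptch1 promoter lies at chr17:1555321-1555620 on the plus strand, and the capitals mark the GLI motif, which reads TGGGTGGTC here because it is on the minus strand. It begins 172 bases before the start. The Smo promoter, at chr4:59310834-59311133 on the plus strand, is printed beside it because Smo encodes the partner of the receptor and holds only the core, marked in capitals 238 and 186 bases before the start.
Ptch1: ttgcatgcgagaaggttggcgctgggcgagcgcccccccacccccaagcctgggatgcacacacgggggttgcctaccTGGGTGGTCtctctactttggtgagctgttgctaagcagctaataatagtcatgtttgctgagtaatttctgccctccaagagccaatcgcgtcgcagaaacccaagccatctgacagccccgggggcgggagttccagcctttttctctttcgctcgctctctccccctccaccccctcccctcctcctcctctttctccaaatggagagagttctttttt
Smo: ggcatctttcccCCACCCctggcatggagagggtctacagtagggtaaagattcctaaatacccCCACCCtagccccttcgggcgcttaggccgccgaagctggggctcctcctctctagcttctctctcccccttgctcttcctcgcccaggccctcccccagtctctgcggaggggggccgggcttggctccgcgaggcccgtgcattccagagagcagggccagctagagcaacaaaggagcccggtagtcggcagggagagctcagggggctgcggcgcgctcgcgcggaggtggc
Of 33469 promoters of the same length, 129 (0.385%) held the GLI motif on either strand and 9849 (29.4%) held the core. All 6 member promoters held the core at least once, with 3 copies in Ptch1, of which 1 lies within the GLI motif. These are matches of letters and do not show binding.

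Abundance is given as FPKM, a read density scaled to the length of the transcript and to the mapped reads of the library, so that levels of different genes can be compared per length. The libraries held 6353210 to 9862180 mapped reads, as implied by the deposited coverage. Reads behind single genes were recovered from the FPKM and came out whole, within 0.1 read, for 91.3% of 54934 values. Changes were tested with limma on log2(FPKM + 1) over the 10279 genes that reached an FPKM of 1 in 3 or more libraries. A gene was called where its Benjamini-Hochberg adjusted p was under 0.05 and its change on that scale was 2-fold or more. For weakly expressed genes the added 1 makes changes look smaller than they are. Of the 9 members, 8 passed the filter, and Hhip did not. Markers of epithelium, stroma and smooth muscle were present in every library, apart from the epithelial gene Cldn3, which was listed at 0 in all 12. One library, SPI-E2 1, stood apart from the other SPI-E2 libraries in most members, and results that rest on it are given with and without it.

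Most members of the axis were lower with E2 in casein-fed rats. In CAS-E2 against CAS, 5 of the 8 tested members were called lower (Ihh, Ptch1, Smo, Gli1 and Nr2f2) and none higher, where 6.37% of all tested genes were called lower. The median log2 fold change was -1.29 over the members and -0.07 over all tested genes. For all 8 members, every CAS-E2 library lay below every CAS library, which held for 31.2% of all tested genes. These are whole-tissue RNAs, in which fewer cells of a type and less RNA per cell cannot be told apart.

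**Figure D1:**
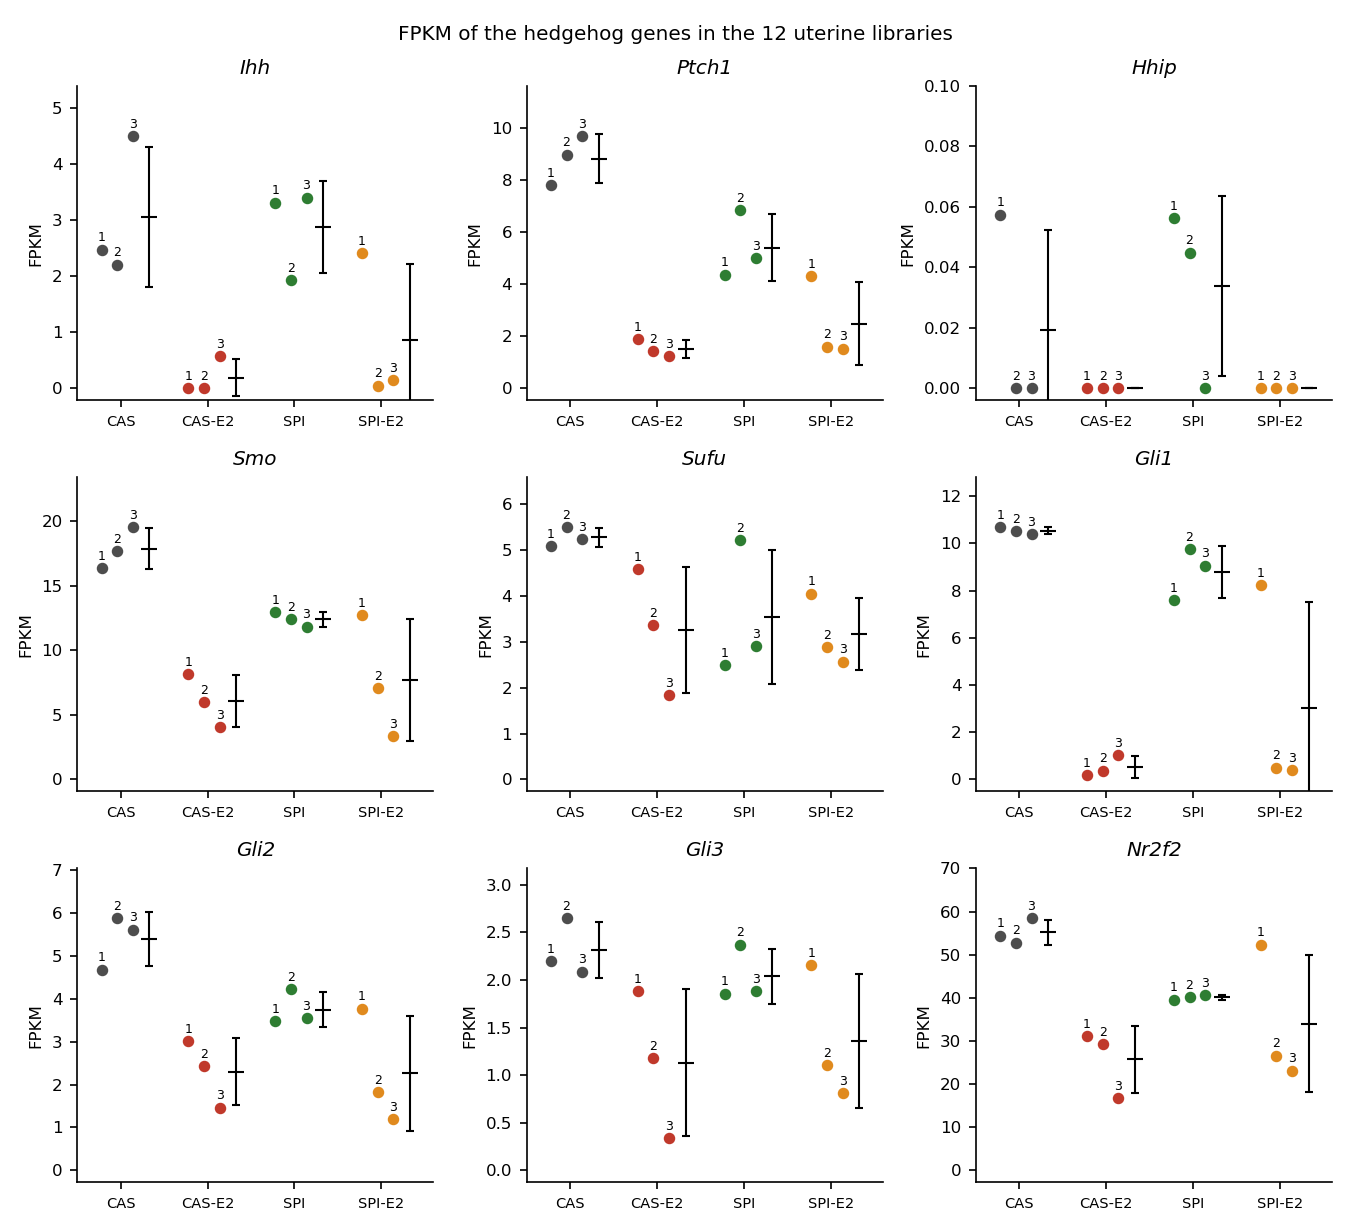
FPKM (y axes, starting just below 0) of the 9 members in each group (x axes), with 1 numbered point per library and, in black, the mean with the SD of 3 libraries; lower ends of bars that pass below 0 are not drawn. In CAS-E2 every library lies below every CAS library for all members but Hhip, while SPI-E2 1 lies with the SPI libraries for most members.

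The ligand Ihh (rn4, chr9:74287115-74293332, minus strand, 3 exons) nearly disappeared. Its FPKM was 2.47, 2.20 and 4.49 in the CAS libraries, 0, 0 and 0.570 in CAS-E2, 3.31, 1.93 and 3.40 in SPI, and 2.41, 0.0497 and 0.141 in SPI-E2. All 3 CAS-E2 libraries and 2 of the 3 SPI-E2 libraries were below all 6 libraries without E2, and SPI-E2 1 was within their range. The FPKM fell from 3.05 ± 1.25 (SD, n = 3) in CAS to 0.190 ± 0.329 (SD, n = 3) in CAS-E2, a ratio of 0.0622. These values rest on 142 reads in the CAS libraries together and 8 in CAS-E2, all 8 of which came from CAS-E2 3. The log2 fold change was -1.76 (SE 0.40), with a limma adjusted p of 0.0059.

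The receptor Ptch1 (rn4, chr17:7088234-7142457, plus strand, 23 exons) is both the gate of the pathway and one of its targets. Its FPKM was 7.80, 8.98 and 9.67 in CAS, 1.88, 1.41 and 1.22 in CAS-E2, 4.37, 6.84 and 4.99 in SPI, and 4.31, 1.61 and 1.52 in SPI-E2. The CAS-E2 libraries, SPI-E2 2 and SPI-E2 3 were all below the others. The change in casein-fed rats was -1.97 on the log2 scale (SE 0.26), with a limma adjusted p of 0.00038, and the ratio of mean FPKM was 0.171.

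Smo (rn4, chr4:56623494-56645571, plus strand, 12 exons), which encodes the transducer that Ptch1 holds back, was the second most abundant member in CAS. Its FPKM was 16.3, 17.7 and 19.5 in CAS, 8.15, 5.98 and 4.06 in CAS-E2, 12.9, 12.4 and 11.8 in SPI, and 12.7, 7.08 and 3.34 in SPI-E2. SPI lay between CAS and CAS-E2 without overlap. Smo fell by 1.45 on the log2 scale in CAS-E2 (SE 0.33; limma adjusted p = 0.0059).

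Gli1 (rn4, chr7:67288291-67297461, minus strand, 11 exons), the GLI factor that acts mainly as an activator, had the largest fold change of the members in casein-fed rats on the scale of the test. Its FPKM was 10.7, 10.5 and 10.4 in CAS, 0.167, 0.365 and 1.03 in CAS-E2, 7.58, 9.75 and 9.06 in SPI, and 8.22, 0.499 and 0.397 in SPI-E2. The 6 libraries without E2 were all at least 7.58, and all E2 libraries but SPI-E2 1 were at most 1.03. The CAS-E2 mean was 0.0493 of the CAS mean, which corresponds to 822 reads in CAS and 38 in CAS-E2. The log2 fold change was -2.96 (SE 0.55), with a limma adjusted p of 0.0021. Exons of Gli1 overlap exons of Arhgap9 on the opposite strand, and the kit did not keep strand, so reads in the overlap cannot be told apart. The FPKM of Arhgap9 went from 1.20 ± 0.29 (SD, n = 3) in CAS to 2.63 ± 0.79 (SD, n = 3) in CAS-E2, opposite to Gli1.

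The other GLI factors changed less. Gli2 (rn4, chr13:31551089-31607264), the main activator at the onset of signalling, had an FPKM of 4.68, 5.88 and 5.61 in CAS, 3.01, 2.43 and 1.46 in CAS-E2, 3.48, 4.22 and 3.55 in SPI, and 3.77, 1.82 and 1.20 in SPI-E2. Its log2 fold change in CAS-E2 was -0.98, just short of the fold threshold, with a limma adjusted p of 0.012. Gli3 (rn4, chr17:57594102-57867710), mainly a repressor, had an FPKM of 2.20, 2.65 and 2.09 in CAS, 1.88, 1.18 and 0.336 in CAS-E2, 1.86, 2.37 and 1.88 in SPI, and 2.15, 1.11 and 0.813 in SPI-E2. Its log2 fold change was -0.70, with a limma adjusted p of 0.055, and it was not called.

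Sufu (rn4, chr1:251612377-251708109), which encodes a cytoplasmic inhibitor of the GLI proteins, had an FPKM of 5.10, 5.50 and 5.24 in CAS, 4.59, 3.36 and 1.83 in CAS-E2, 2.49, 5.22 and 2.90 in SPI, and 4.06, 2.89 and 2.57 in SPI-E2. The SPI libraries spread widely, with SPI 2 near the CAS level and the others below it. The log2 fold change in CAS-E2 was -0.61 (limma adjusted p = 0.081). Hhip, a decoy receptor for hedgehog ligands, gave 1 read in each of CAS 1, SPI 1 and SPI 2 and no read in the other libraries, so a change in it was not detectable at this depth.

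Nr2f2 (rn4, chr1:125280974-125286929, minus strand, 3 exons) was the most abundant member in every group. Its FPKM was 54.4, 52.8 and 58.4 in CAS, 31.2, 29.3 and 16.7 in CAS-E2, 39.6, 40.1 and 40.6 in SPI, and 52.4, 26.6 and 23.1 in SPI-E2. The SPI libraries were all below CAS and above CAS-E2. Nr2f2 fell by 1.12 on the log2 scale in CAS-E2 (SE 0.28; limma adjusted p = 0.0095). Without CAS-E2 3 the log2 fold change was -0.85, short of the fold threshold, with a limma adjusted p of 0.037.

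The order of the levels changed with E2 in casein-fed rats. In CAS, Nr2f2 was followed by Smo, Gli1, Ptch1, Gli2, Sufu, Ihh, Gli3 and Hhip. The ranges of neighbours in that order overlapped for Gli2 and Sufu and for Ihh and Gli3, and not for the others. In CAS-E2, Gli1 dropped from the third to the seventh place, now also behind Sufu, Gli2, Ptch1 and Gli3. There the ranges of all neighbours overlapped but those of Nr2f2 and Smo. In soy-fed rats Gli1 had rank 3 in SPI and rank 4 in SPI-E2, where its range overlapped those of both neighbours. The rank in SPI-E2 rested on SPI-E2 1, with an FPKM of 8.22 against 0.499 in SPI-E2 2 and 0.397 in SPI-E2 3. In the mean of SPI-E2 2 and SPI-E2 3, Gli1 (0.448) was behind Sufu (2.73), Ptch1 (1.57), Gli2 (1.51) and Gli3 (0.961). It was ahead of Ihh (0.0951) there, so without SPI-E2 1 its place was that in CAS-E2.

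In soy-fed rats, Ihh and Gli1 were called lower with E2, a result that depended on single libraries. In SPI-E2 against SPI, these 2 of the 8 tested members were called lower and none higher, where 1.86% of all tested genes were called lower. The log2 fold change was -1.25 for Ihh (SE 0.40; limma adjusted p = 0.038) and -1.86 for Gli1 (SE 0.55; limma adjusted p = 0.027). Ptch1 had a limma adjusted p of 0.020 but a log2 fold change of -0.95, short of the fold threshold. The values of the remaining members ran from -0.77 for Smo to -0.09 for Sufu, with limma adjusted p-values of 0.092 to 0.82. The median over the members was -0.69, against 0.11 over all tested genes, and a scaling of the libraries to equal median ratios brought the latter to -0.0053.

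In the SPI-E2 group the first library stood apart. SPI-E2 1 was at the level of the SPI libraries for most members, as 201 reads of Gli1 and 37 of Ihh show against 16 and 9 of Gli1 and 1 and 2 of Ihh in SPI-E2 2 and SPI-E2 3. On the log2 scale it lay 8.92% of the way from the SPI mean to the mean of SPI-E2 2 and SPI-E2 3 for Ihh, 2.94% for Gli1 and 19.3% for Ptch1. For Smo, Gli2 and Gli3 it lay slightly on the far side of the SPI mean, at -2.93%, -0.97% and -9.17% of that distance. For Sufu (-84.7%) and Nr2f2 (-55.9%) it lay further beyond the SPI mean. The distance itself was only 0.24 on the log2 scale for Sufu, so its percentage is not comparable with the rest. It was 0.67 for Nr2f2 and 0.63 for Gli3. The FPKM of Nr2f2 in SPI-E2 1, 52.4, was above all SPI libraries (39.6 to 40.6). Genes raised by E2 were further along in the same library, while genes lowered by it were closer to the members. Among 670 genes called higher in CAS-E2 against CAS whose SPI-E2 2 and 3 mean was at least 2-fold from the SPI mean, the median position was 46.3% (quartiles 38.5% to 55.7%). Among 305 such genes called lower it was 17.4% (quartiles 5.72% to 32.6%), which Ptch1 exceeds and whose quartiles hold Ihh. The members were not held to that 2-fold distance. The sums of epithelial and stromal markers in this library, 555 and 750, were the lowest and the highest of the SPI-E2 group, and their part in this was not tested.

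**Figure D2:**
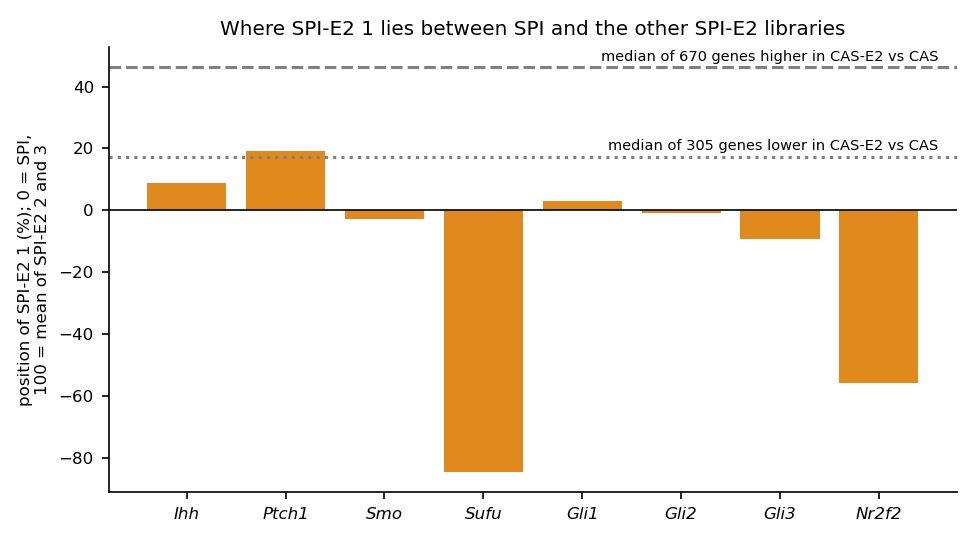
Position of library SPI-E2 1 for each tested member (bars), in percent of the distance on the log2(FPKM + 1) scale from the SPI mean (0) to the mean of SPI-E2 2 and SPI-E2 3 (100). Bars reach from -84.7% for Sufu, whose distance is only 0.24, to 19.3% for Ptch1, and the dashed and dotted lines give the median of 670 genes called higher (46.3%) and 305 called lower (17.4%) in CAS-E2 against CAS.

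Without SPI-E2 1, 4 members were called lower in soy-fed rats (Ihh, Ptch1, Smo and Gli1), where 4.45% of the tested genes were called lower. The log2 fold changes were then -1.80 for Ihh, -1.30 for Ptch1, -1.18 for Smo and -2.75 for Gli1, with limma adjusted p-values of 2.9e-06 to 0.0054. In the 5 E2 libraries other than SPI-E2 1, Ihh, Ptch1, Smo, Gli1, Gli2 and Nr2f2 were each below all 6 libraries without E2. The share of all tested genes with this separation was not computed, and SPI-E2 1 is the library that stood apart in these same members. For Gli3 and Sufu the ranges overlapped. The call for SPI-E2 against SPI also depended on single libraries in the other direction. No member was called without SPI 2, without SPI 3, without SPI-E2 2 or without SPI-E2 3. Over all tested genes, 112, 218, 66 and 62 were called lower in these fits, against 191 with all libraries. Without CAS 1 or without SPI 1, 1 member was called, where 179 and 126 of all tested genes were called lower.

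**Figure D3:**
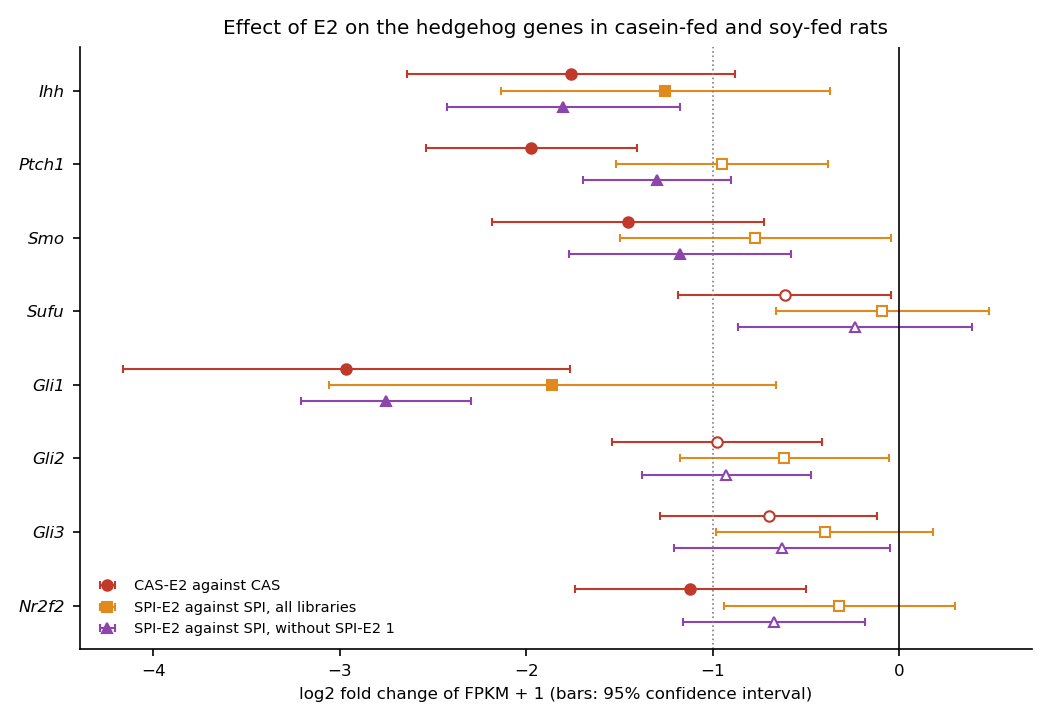
Log2 fold change of FPKM + 1 (x axis) with its 95% confidence interval for the 8 tested members (y axis), for CAS-E2 against CAS and for SPI-E2 against SPI with and without library SPI-E2 1. Filled symbols were called at an adjusted p under 0.05 and 2-fold (dotted line), and every estimate lies below 0, from -2.96 (Gli1 in casein-fed rats) to -0.09 (Sufu in soy-fed rats).

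A difference in the E2 effect between the diets was not established for any member. In the interaction, 0 of 8 members were called and 0% of all tested genes, while 1530 genes had an unadjusted p under 0.05 in limma. Of these, 1362 were higher and 168 lower, and the median difference over all tested genes was 0.21. After scaling to equal median ratios the numbers were 580 and 487, with a median of 0.014. Calls over all genes depended on the fit. They were 84 higher and 7 lower without SPI-E2 1, and 133 and 37 with array weights. Without SPI-E2 1 and CAS-E2 3 they were 220 and 39, and no member was among any of these calls. Ptch1, named after its values were seen, was the one member with an unadjusted p under 0.05 in limma: its fall was smaller by 1.02 (95% confidence interval 0.22 to 1.82) in soy-fed rats, with a limma adjusted p of 0.24. Without SPI-E2 1 the difference for Ptch1 was 0.67 (limma adjusted p = 0.16). For Gli1 the difference was 1.10, with an interval of -0.59 to 2.80, and without SPI-E2 1 it was 0.21, with an interval of -0.40 to 0.82.

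Soy protein alone had no called effect on the axis. In SPI against CAS, 0 of 8 members were called, where 0.0195% of all tested genes were called in either direction. Of the members, only Ptch1 had an unadjusted p under 0.05 in limma. Its log2 difference was -0.63 (95% confidence interval -1.20 to -0.07; limma adjusted p = 0.35). That of Nr2f2 was -0.45 (95% confidence interval -1.07 to 0.17), and that of Ihh was -0.05, with an interval of -0.93 to 0.83 that includes a nearly 2-fold change either way. For 5 of the 8 members (Ptch1, Smo, Gli1, Gli2 and Nr2f2), every SPI library lay below every CAS library, where 30.8% of all tested genes did. All genes together were shifted by a median of -0.16 in this comparison. After scaling to equal median ratios, which brought that median to -0.0052, Smo and Nr2f2 were still without overlap, 2 of 8 members against 11.3% of all tested genes.

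Under E2, the diets did not differ detectably in these genes. In SPI-E2 against CAS-E2, 0 of 8 members were called, where 0.00973% of all tested genes were called, and no member had an unadjusted p under 0.05 in limma. The largest difference, 0.86 for Gli1, had a 95% confidence interval of -0.34 to 2.06 and was -0.03 without SPI-E2 1. Set against CAS, SPI-E2 had 5 of 8 members called lower (Ihh, Ptch1, Smo, Gli1 and Gli2), where 3.89% of all tested genes were called lower. This comparison shares the CAS libraries with CAS-E2 against CAS. Its count was 6 without SPI-E2 1, with Nr2f2 added, 3 without CAS 2 or CAS 3, 2 without SPI-E2 2 and 1 without SPI-E2 3. Over all tested genes, 747, 328, 369, 295 and 172 were called lower in these fits, in the same order, against 400 with all libraries.

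Ihh fell while markers of the epithelium, its known source, rose. Of the 8 tested epithelial markers, 7 were called higher in CAS-E2 against CAS, where 7.99% of all tested genes were, among them the keratins Krt8 and Krt19. All 8 were called higher in SPI-E2 against SPI, against 8.39% of all tested genes. Summed over the 9 markers with a row, their FPKM was 212 to 240 in CAS, 949 to 1643 in CAS-E2, 132 to 169 in SPI and 555 to 1994 in SPI-E2. The level of Ihh relative to the mean of these markers, as a difference of log2(FPKM + 1), was -2.38, -2.37 and -1.68 in CAS, -5.56, -5.75 and -5.49 in CAS-E2, -1.58, -1.86 and -1.42 in SPI, and -3.18, -6.33 and -6.20 in SPI-E2. All 6 E2 libraries were below all 6 others. This relative level holds the rise of the markers as well as the fall of Ihh: in CAS-E2 1 and CAS-E2 2, where Ihh was 0, it is the marker mean with its sign turned, and in SPI-E2 1 Ihh itself was within the range without E2. The mean difference was -3.53, with a two-sided exact permutation p of 0.005 within diets, the smallest that 400 regroupings can give. The Benjamini-Hochberg adjusted p over the 5 relative levels tested in this way was 0.0125 by the same exact permutation. In the same libraries Ihh was already called lower and most of the markers higher, so neither p is separate support for a fall of Ihh.

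Stromal markers moved in the same direction as the stromal members. Of 10 stromal markers, 3 were called lower in CAS-E2 against CAS (Lum, Thy1 and Vim), where 6.37% of all tested genes were. In SPI-E2 against SPI 6 were called lower, against 1.86% of all tested genes. None of the markers was at 0 in any library. Their summed FPKM was 774 to 971 in CAS, 377 to 845 in CAS-E2, 807 to 946 in SPI and 295 to 750 in SPI-E2. Their mean log2 level was lower by 0.77 in CAS-E2 and by 0.93 in SPI-E2 than in the same diet without E2.

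Some markers of other cells moved with E2 too. In CAS-E2 against CAS, 3 of 5 endothelial markers and the smooth muscle gene Myocd, 1 of 6 smooth muscle markers, were called lower. There 4 of 5 macrophage markers, 3 of 3 proliferation genes and 1 of 5 adipocyte markers were called higher. Of all tested genes, 6.37% were called lower and 7.99% higher in this comparison. In SPI-E2 against SPI, 1 endothelial marker was called lower and 2 macrophage markers and 2 proliferation genes higher. No smooth muscle or adipocyte marker was called there, and the shares of all tested genes were 1.86% lower and 8.39% higher. The sum of endothelial markers was 71.3 to 87.6 in CAS and at most 47.2 in CAS-E2, and that of macrophage markers 72.7 to 85.3 and 148 to 333. The sum of 4 liver markers was 1402 in SPI 1 and at most 241 in the other libraries. The part of these cells in the results was not tested.

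Gli1 was lower with E2 also relative to the stromal markers. The difference from their mean was -2.36, -2.23 and -2.06 in CAS, -5.17, -4.58 and -3.47 in CAS-E2, -2.61, -2.30 and -2.27 in SPI, and -2.33, -3.97 and -3.68 in SPI-E2. Only SPI-E2 1 was within the range of the libraries without E2. The mean difference between E2 and no E2 was -1.56 (two-sided exact permutation p = 0.01; adjusted p = 0.0167). It was -2.19 in casein-fed and -0.93 in soy-fed rats, and -1.43 in the latter without SPI-E2 1.

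For Nr2f2 the estimates in casein-fed and soy-fed rats had opposite signs, and a difference between the diets was not tested. Relative to the stromal markers it differed by -0.35 in casein-fed rats. The values there were -0.110, -0.011 and 0.321 in CAS and -0.388, -0.106 and -0.344 in CAS-E2, and the ranges overlapped. In soy-fed rats it differed by 0.61, with 0.20, 0.23 and 0.43 in the SPI-E2 libraries, all above -0.37, -0.37 and -0.22 in SPI, although 3 libraries against 3 allow no exact permutation p below 0.1. The pooled value of 0.13 (two-sided exact permutation p = 0.5) averages over these opposite signs. As a description, the other stromal members relative to the same markers were -1.20 (Ptch1), -0.68 (Smo), -0.20 (Gli2) and 0.07 (Gli3) in casein-fed rats, and -0.02, 0.16, 0.31 and 0.53 in soy-fed rats. Ptch1 thus fell beyond the stromal markers in casein-fed rats and with them in soy-fed rats, and these differences were not tested.

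**Figure D4:**
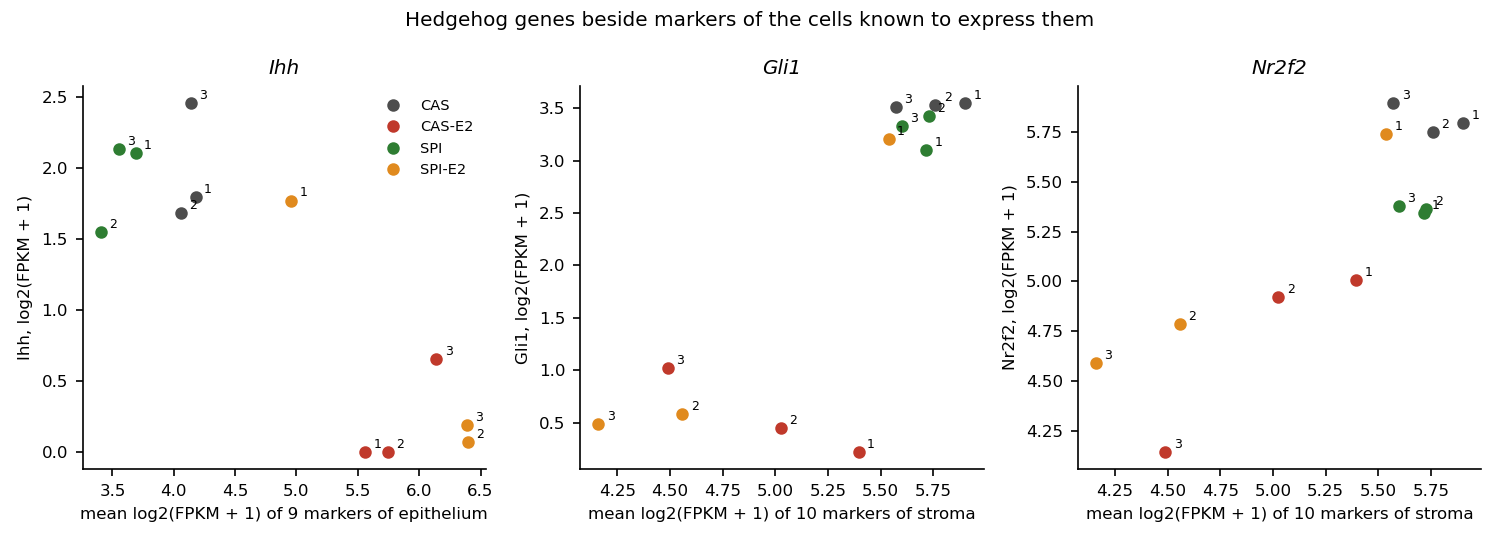
Ihh (left) against the mean of 9 epithelial markers, and Gli1 (middle) and Nr2f2 (right) against the mean of 10 stromal markers, all as log2(FPKM + 1), with 1 point per library, coloured by group and labelled with the replicate number. Ihh is low in the 5 libraries with the highest epithelial markers, but not in SPI-E2 1, Gli1 is low in CAS-E2 1 although its stromal markers reach 5.40 on this scale, and Nr2f2 is lowest in the 5 libraries with the lowest stromal markers.

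Within the axis, the activator changed more than the repressor. The log2 level of Gli1 relative to Gli3 was 1.66 to 1.89 in CAS and 1.59 to 1.80 in SPI. It was -1.30, -0.67 and 0.60 in CAS-E2 and 1.55, -0.49 and -0.38 in SPI-E2, and all 6 E2 libraries were below all 6 others. For SPI-E2 1 the margin was narrow, 1.55 against 1.59 in SPI 1, and its Gli1 itself was within the SPI range. The mean difference was -1.86 (two-sided exact permutation p = 0.005, the smallest possible; adjusted p = 0.0125). Ptch1 relative to Smo differed by -0.35 (two-sided exact permutation p = 0.09; adjusted p = 0.1125), which misses the threshold.

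The members also varied within groups, and did so in 2 ways. CAS-E2 3 had the highest Ihh and Gli1 of its group and the lowest Ptch1, Smo, Gli2, Gli3, Sufu and Nr2f2. It also had the lowest sum of stromal markers in its group, 377, and the highest sum of epithelial markers, 1643. Their part in this was not tested. Over the 28 pairs of tested members, correlations of the deviations from the group means over 12 libraries had a median of 0.74, and ranged from -0.10 to 0.94. Over the 9 libraries outside SPI-E2 the median was 0.50 and the range -0.91 (Smo with Gli1) to 0.94 (Gli2 with Gli3). These are descriptions over libraries that share their normalization.

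Other genes of the hedgehog pathway were lower in part. Of 32 listed genes 22 have a row and 20 were tested, and in CAS-E2 against CAS 6 were called lower and 1 higher, against 6.37% and 7.99% of all tested genes. The median log2 fold change was -0.33, against -0.07 over all genes. Among the lower genes were Lrp2, an endocytic receptor that binds hedgehog, the co-receptor Cdon, Disp1, which releases hedgehog from producing cells, the glypican Gpc3 and the ciliary protein gene Evc. Lrp2 had an FPKM of 7.11, 6.21 and 5.56 in CAS and 0.0542, 0.115 and 0.319 in CAS-E2, a log2 fold change of -2.65 (limma adjusted p = 0.00019). Gsk3b, a kinase that promotes GLI processing and acts in many other pathways, was higher by 1.06 on the log2 scale. In SPI-E2 against SPI, Lrp2 (-1.59) and Gpc3 (-1.63) were called lower and Gsk3b (1.16) higher, against 1.86% and 8.39% of all tested genes, with a median of -0.42 against 0.11. Without SPI-E2 1 the number called lower was 6, against 4.45% of all genes. Both other hedgehog ligand genes were also looked at. Shh was listed at 0 in all 12 libraries, and Dhh had a mean FPKM of 0.839 in CAS and 0.634 in CAS-E2, against 0.775 in SPI and 0.339 in SPI-E2.

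Genes known downstream of hedgehog in the uterus or elsewhere moved both ways. Of 17 listed, 10 were tested. In CAS-E2 against CAS, Bmp4, Hand2, Osr2, Bcl2 and Ccnd2 were called lower and Mycn higher, 5 and 1 genes against 6.37% and 7.99% of all genes, with a median log2 fold change of -0.64. Hand2, a stromal transcription factor, had an FPKM of 44.4, 48.5 and 35.6 in CAS and 16.7, 20.9 and 19.2 in CAS-E2, and Osr2 had 56.6, 63.0 and 49.2 in CAS and 17.8, 18.5 and 10.7 in CAS-E2, without overlap in either gene. Bmp4, a secreted growth factor, changed by -1.21 on the log2 scale, and Mycn by 2.67. In SPI-E2 against SPI none was called lower, and Mycn (1.79), Wnt4 (1.63) and Ccnd1 (1.01) were called higher, 3 genes against 8.39% of all genes, with a median of -0.23. Without SPI-E2 1, Osr2 was also called lower there.

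Of the genes known upstream of Ihh, some were lower with E2 in casein-fed rats. Of 8 listed, 7 were tested, and 3 (Esr1, Foxa2 and Gata2) were called lower in CAS-E2 against CAS, beside the 6.37% over all genes. In SPI-E2 against SPI limma called none, and only Gata2 had an unadjusted p under 0.05. The median log2 fold change was -0.77 in the first comparison and -0.05 in the second, against -0.07 and 0.11 over all genes. Foxa2, a transcription factor of uterine glands, had an FPKM of 8.55, 8.18 and 10.9 in CAS, 2.12, 1.52 and 2.42 in CAS-E2, 3.99, 4.38 and 4.11 in SPI, and 3.42, 3.93 and 3.18 in SPI-E2. Gata2, which acts with the progesterone receptor upstream of Ihh, went from 34.1 ± 3.1 (SD, n = 3) in CAS to 8.83 ± 0.70 (SD, n = 3) in CAS-E2. The estrogen receptor gene Esr1 fell by 1.15 on the log2 scale, and Pgr, the progesterone receptor gene, had a log2 fold change of 0.23 (limma adjusted p = 0.55).

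The genes with profiles most like those of the members were sought by Pearson's r of log2(FPKM + 1) over the 12 libraries, as a description, since the libraries share their groups. Nearest to Ihh were Asgr2 (r = 0.975) and C2cd4d (0.972), and nearest to Gli1 were C2cd4d (0.994) and Atp2b2 (0.992). C2cd4d and Gstm7 were among the 5 nearest genes of both. Nearest to Ptch1 were Rere (0.993), Igf1r (0.987) and, of the pathway itself, Disp1 (0.985). Nearest to Nr2f2 were Ppp1r12b (0.983) and Nfic (0.978). By the deviations from the group means alone, Lamc3 (0.988) was nearest to Gli1 and F8 (0.992) to Nr2f2. These deviations include those of the outlying SPI-E2 1, and nearest genes by deviation were not sought without it.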

How the data were processed

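Poly-A RNA of rat uteri was sequenced by the authors as 36-base single reads with an unstranded kit. They filtered the reads, aligned them to rn4 with TopHat2 2.0.9 and Bowtie2 2.1.0 and estimated transcript FPKM with Cufflinks 2.1.1, with CASAVA 1.7 also named in the submitters' processing notes. As deposited, the values are transcript FPKM, not counts, held as text beside coverage, and scaled by the authors to each library's mapped reads. The Cuffdiff test of the study, which needs the reads, was not repeated.

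FPKM were summed per gene symbol (16493 symbols, 113 on more than 1 chromosome name). With all 4 groups in 1 linear model, log2(FPKM + 1) was fitted with limma 3.58.1 (R 4.3.3, variance trend) for the 10279 genes that reached an FPKM of 1 in 3 or more libraries. Benjamini-Hochberg adjustment was over all of them. Depth, 6353210 to 9862180 reads per library, came from the ratio of coverage to FPKM, and reads per gene from FPKM, that depth and the exonic length less 202.5 bases. The 5 relative levels were compared between E2 and no E2 by two-sided exact permutation within diet. Python 3.11.15, pandas 2.3.3, scipy 1.17.1 and matplotlib 3.10.9 were used, and the test was checked on simulated data.

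The members, lists, markers and tests were chosen with earlier results of these data known. The rule for named genes was all 9 members, list genes called in either E2 comparison (up to 8 per list by adjusted p), and the 5 nearest profiles of Ihh, Ptch1, Gli1 and Nr2f2. Other genes were named for their role or once their values were known. Listed symbols that match no row were not analysed here. Some genes that the rule selects are left out of the text. No source says that the 3 pools of a group share anything by number. After subtraction of the group means, libraries of the same number correlated at 0.12 to 0.34 between CAS-E2 and SPI-E2. Between other groups the values were -0.26 to 0.15, which overlaps that range. Libraries of different numbers were not correlated for comparison, so these values cannot show whether the numbers pair any libraries. The alternatives changed the pseudocount, filter, scaling, fit or cutoff, added a replicate block or left out a library. The voom fit on recovered reads and the fit without SPI-E2 1 and CAS-E2 3 were added after seeing the data.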

Additional observations from a re-analysis of the deposited data

How the results depend on the processing

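Low depth limits Ihh, Gli1 in the E2 groups and Hhip, whose values rest on few reads, and 3 pools per group with 1 outlying pool limit SPI-E2. In CAS-E2 against CAS the number of members called lower was 5 and stayed between 4 and 7 under 26 alternatives, with Ihh, Ptch1, Smo and Gli1 called in each. Over all tested genes the number called lower was 655, and ran from 539 with median-ratio scaling to 2262 with no fold cutoff. In SPI-E2 against SPI (2 members) it was 1 with no filter, 4 with upper-quartile scaling, 4 with array weights, 0 when only the groups compared were fitted, 5 with voom on recovered reads, 4 without SPI-E2 1 and CAS-E2 3, and 0 to 4 when 1 library was left out. In SPI-E2 against CAS (5 members) it was 3 when only the groups compared were fitted and 1 to 6 when 1 library was left out. The cause of these shifts was not tested, and leaving out libraries also makes the samples smaller. Calling over all genes moved as well. In SPI-E2 against SPI, 862 were called higher and 191 lower, 707 and 279 after median-ratio scaling, and 565 and 491 after upper-quartile scaling. The number called lower there was 169 with no filter, 337 with array weights, 93 with only the groups compared, and 1085 with voom. It was 467 without SPI-E2 1 and CAS-E2 3, and 62 to 456 when 1 library was left out. The counts of members are to be read beside these. With the replicate number as a block, the counts were again 5 (CAS-E2 against CAS), 2 (SPI-E2 against SPI) and 5 (SPI-E2 against CAS), and no call of a member changed.

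Some uncalled values changed sign. Ihh in SPI against CAS was 0.10 with median-ratio scaling, 0.12 with upper-quartile scaling, 0.13 with array weights, 0.18 with voom, and -0.19 to 0.19 when 1 library was left out. Gli3 in the same comparison was 0.012 and 0.033 with the median-ratio and upper-quartile scalings. Sufu in SPI-E2 against SPI was -0.26 to 0.16 when 1 library was left out. In SPI-E2 against CAS-E2, Ptch1 was -0.040 without SPI-E2 1 and CAS-E2 3, and Gli1 was -0.031 to 1.33 when 1 library was left out.

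Within 1 diet, where 3 libraries against 3 allow no exact permutation p below 0.1, Ihh relative to epithelial markers was -3.45 (CAS) and -3.62 (SPI), Gli1 relative to stromal markers -2.19 and -0.93, and Gli1 relative to Gli3 -2.26 and -1.46. Nr2f2 relative to stromal markers was -0.35 within CAS and 0.61 within SPI. Ptch1 relative to Smo passed the threshold with a pseudocount of 0.1 (-0.63), with 0.5 (-0.48) and without SPI-E2 3 (-0.47), with a range of -0.47 to -0.26 when 1 library was left out.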
